A study of Mus musculus with 6 samples.

Results

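Cluster 12 of the control uterine epithelium was a small group of cells that the study proposed as epithelial stem cells. Its members were the 71 cells that carried the number 12 in the authors' clustering of the control (CO) epithelium and that had a column of counts, out of 2583 such cells in all 15 clusters, a share of 2.75% (exact binomial 95% interval 2.15 to 3.45). All 71 were labelled epithelial. The other 2512 CO epithelial cells formed the comparison group.

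The study asked how brief neonatal exposure to the synthetic estrogen diethylstilbestrol (DES) changes the uterus of the adult mouse. Female CD-1 pups received corn oil (CO) or DES at 1 mg/kg/day by injection on days 1 to 5 after birth, and uteri were taken at 12 months of age, from CO mice in estrus. Uterine horns, cut away from the oviducts and the uterine body, were pooled from 2 CO mice and from 4 DES mice into 1 single-cell library each, with 32387 and 16312 cells. In addition, 2 CO and 2 DES sections, each from 1 mouse, were measured by spatial transcriptomics. Cells of the 2 CO mice could not be told apart, so whether both mice contributed to cluster 12 is not known, and no test across mice was possible for single cells.

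The luminal epithelium lines the uterine cavity and the glands grow out of it. Renewal of this lining is thought to rest on rare progenitor cells, and genes of the Wnt pathway, such as *Lgr5* and *Axin2*, mark such cells in several epithelia. Secreted Wnt proteins bind Frizzled receptors on the cell surface and stabilize β-catenin, which then acts with TCF/LEF factors in the nucleus, while *Lgr5* encodes a receptor for R-spondins, which strengthen the signal.

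Single-cell RNA sequencing (scRNAseq) gave counts per cell. A cluster is defined by its own genes, so the values that follow describe cluster 12 and are no test of it. Levels are UMIs (unique molecular identifiers, counted RNA molecules) added up across a group of cells and scaled to 1000000 UMIs (CPM). Intervals are exact 95% intervals of the counting error, and do not cover differences between mice. The 71 cells held 1767516 UMIs, with 3804 in the shallowest cell, a median of 20061 and 80388 in the deepest, against a median of 23630 in the other CO epithelial cells. Mitochondrial genes took a median of 10.4% of the UMIs of a cluster 12 cell and 9.87% elsewhere in the CO epithelium. The CO and DES libraries shared 180 cell barcodes, of which 0 belonged to cluster 12 and 13 to the other CO epithelial cells.

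*Gstm7* and *Gstm1* were among the leading genes of the cluster, and their start regions are shown with those of *Gstm2* and *Gstm5*, which lie beside them on chromosome 3. They encode mu-class glutathione S-transferases, enzymes that join glutathione to reactive compounds. The sequences are from RefSeq (GRCm38.p6) and run 5′ to 3′ on the strand of the gene, from 250 bases before to 50 bases after the annotated start. Capitals mark the core of the antioxidant response element, TGACNNNGC, searched on both strands. Where RefSeq gave more than 1 start, the downstream one is printed.
Gstm7, chr3:107931565-107931864, minus strand: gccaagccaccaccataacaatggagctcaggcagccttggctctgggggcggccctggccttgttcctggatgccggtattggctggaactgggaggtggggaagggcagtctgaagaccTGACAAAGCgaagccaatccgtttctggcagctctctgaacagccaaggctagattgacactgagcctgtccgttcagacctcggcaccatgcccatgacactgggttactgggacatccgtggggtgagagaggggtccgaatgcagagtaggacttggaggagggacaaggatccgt
Gstm5, chr3:107895604-107895903, plus strand: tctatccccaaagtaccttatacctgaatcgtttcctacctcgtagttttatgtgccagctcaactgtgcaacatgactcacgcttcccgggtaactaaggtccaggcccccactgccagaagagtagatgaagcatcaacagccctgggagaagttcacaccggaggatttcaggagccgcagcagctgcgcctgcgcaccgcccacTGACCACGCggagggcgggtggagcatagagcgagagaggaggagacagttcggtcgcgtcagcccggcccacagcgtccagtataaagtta
Gstm1, chr3:108017769-108018068, minus strand: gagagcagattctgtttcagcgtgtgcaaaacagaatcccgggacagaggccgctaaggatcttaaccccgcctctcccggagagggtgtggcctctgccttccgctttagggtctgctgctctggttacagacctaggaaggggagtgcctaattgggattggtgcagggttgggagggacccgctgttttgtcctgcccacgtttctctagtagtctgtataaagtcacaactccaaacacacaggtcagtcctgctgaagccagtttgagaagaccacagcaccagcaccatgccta
Gstm2, chr3:107986371-107986670, minus strand: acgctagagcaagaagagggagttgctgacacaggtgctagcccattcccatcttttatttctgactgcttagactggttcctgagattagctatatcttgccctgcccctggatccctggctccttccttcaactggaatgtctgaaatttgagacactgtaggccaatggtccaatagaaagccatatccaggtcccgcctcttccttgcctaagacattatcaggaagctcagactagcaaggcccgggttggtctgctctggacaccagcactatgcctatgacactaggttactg
The core began 129 bases before the printed start of *Gstm7* and 42 bases before the start of *Gstm5*. No match to these letters lay in the window of the other, upstream start of *Gstm7* or in the windows of *Gstm1* and *Gstm2*. The core printed for *Gstm7* lay downstream of that gene's upstream start, which is its start in the GENCODE M21 annotation (position 107931817). Among all 32851 RefSeq start regions of this length, 12.4% held the core, as did 5 of the 26 regions of 17 leading genes (19.2%) and 2 of the 6 regions of the mu-class genes (33.3%). The letters CTTTGAT, bound by TCF/LEF factors, were in 3.73% of all start regions and in 0 of the 5 regions given for 4 Wnt pathway genes, *Wnt7a*, *Fzd10*, *Axin2* and *Rnf43*.

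The study looked for stem cells by *Aldh1a1*, *Lgr5* and *Axin2*, and then described *Gstm7*, *Wnt7a*, *En2* and *Ptn* in the cluster, so none of these 7 markers is independent of its naming. Each was higher in it than in the other CO epithelial cells. *Gstm7* stood at 1121 CPM in cluster 12 and 18.2 CPM elsewhere, a ratio of 61.7 (57.6 to 66.1), and had a UMI in 70 of the 71 cells. *En2*, a homeobox transcription factor, stood at 47.0 against 1.71 CPM, a ratio of 27.4 (20.6 to 36.3). *Lgr5* stood at 39.6 against 1.97 CPM, a ratio of 20.1 (14.9 to 26.8). *Aldh1a1*, which makes retinoic acid from retinaldehyde, stood at 83.2 against 4.79 CPM, a ratio of 17.4 (14.2 to 21.1). *Wnt7a*, a Wnt ligand of the uterine epithelium, stood at 81.5 against 7.33 CPM, a ratio of 11.1 (9.19 to 13.4). *Axin2*, a feedback inhibitor induced by Wnt signalling, stood at 22.1 against 2.44 CPM, a ratio of 9.04 (6.23 to 12.8). *Ptn*, which encodes the secreted growth factor pleiotrophin, stood at 523 against 67.4 CPM, a ratio of 7.77 (7.23 to 8.33). These ratios depended on how the other cells were combined. Against the mean of the 14 other clusters, each weighted equally, the ratio was 33.7 for *Gstm7*, 8.27 for *Lgr5*, 10.97 for *Aldh1a1* and 4.04 for *Axin2*. It was 9.92 for *Ptn*.

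Not every marker was highest in cluster 12. *Axin2* was higher in cluster 13, which the study named mature gland cells, at 34.8 CPM. *Lgr5* reached 29.8 CPM in cluster 14, a gland cluster with the highest level of G2/M genes, and was at 2.92 times the level of the study's gland clusters (3, 8, 13 and 14) combined, against 79.6 times the level of the luminal clusters. *Gstm7* was next highest in cluster 14, at 229 CPM, and *Aldh1a1* in cluster 13, at 41.5 CPM. *En2* had no comparable second cluster, with 8.05 CPM in cluster 5. Outside the epithelium, *Aldh1a1* was higher in CO stromal cells (309 CPM) than in cluster 12, as was *Axin2* (94.8 CPM), and *Ptn* was higher in CO myocytes (1140 CPM), while *Lgr5*, *Gstm7*, *Wnt7a* and *En2* were at 5.11 CPM or less in stromal cells.

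Across all genes, 3230 had at least 50 CPM in cluster 12 or in the other CO epithelial cells. Of these, 162 (5.02%) were 2-fold or more higher in cluster 12 and 193 (5.98%) were 2-fold or more lower, with a median ratio of 1.07 over all 3230. At 4-fold or more, 39 genes (1.21%) were higher and 54 (1.67%) lower. Against the gland clusters only, the balance turned, with 417 genes higher and 277 lower. The scatter of gene levels shows most genes close to the line of equal level, and a gene under 50 CPM in the other cells is drawn there only if it reached 50 CPM in cluster 12.

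**Figure D1:**
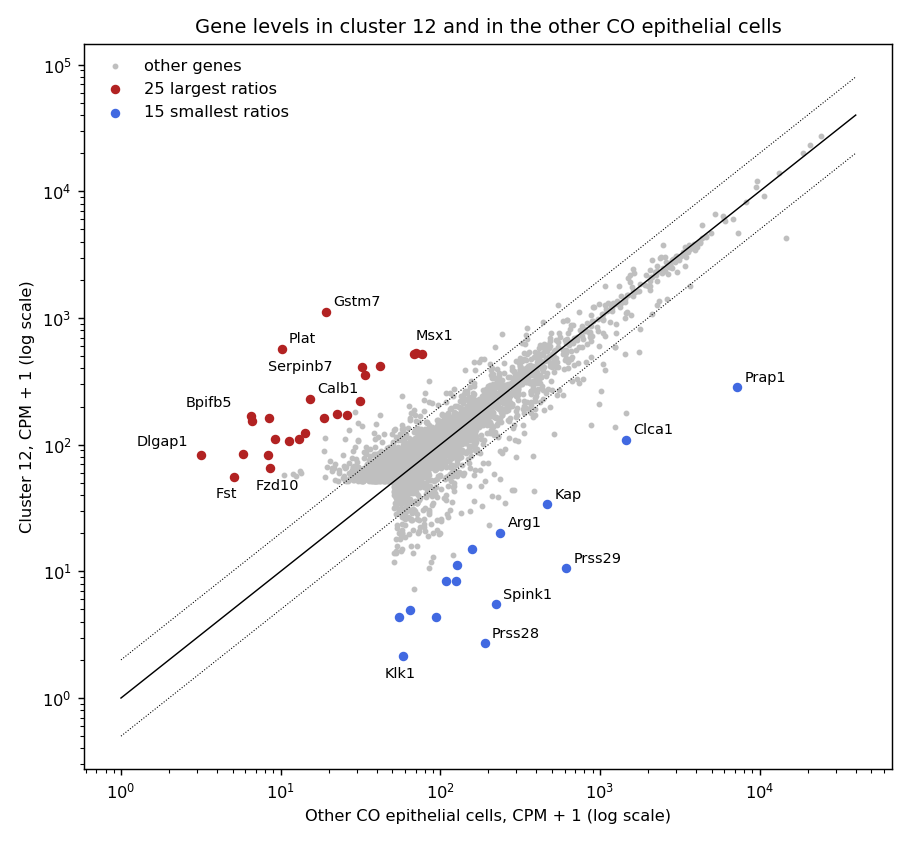
Level of each gene with at least 50 CPM in either group, as CPM + 1 on log scales, in the other CO epithelial cells (horizontal) and in cluster 12 (vertical). The solid line marks equal levels and the dotted lines a 2-fold difference, red points are the 25 genes with the largest ratio among those with a UMI in at least 25% of cluster 12 cells, and blue points are the 15 genes with the smallest ratio. Gstm7 and Plat lie farthest above the line.

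Cluster 12 was highest of the 15 CO clusters for 22 of the 25 genes with the largest ratio, and for 637 of all 3230 genes. *Plat* headed the list. It encodes tissue plasminogen activator, a secreted protease that turns plasminogen into plasmin, and stood at 573 CPM against 9.13 CPM, a ratio of 62.8 (57.0 to 69.2). A UMI of *Plat* was found in 69 of 71 cells, from 0 to 50 UMIs per cell with a median of 13. The next CO cluster had 24.5 CPM, and CO stromal cells had 50.4 CPM. *Plat* and *Gstm7*, the 2 genes with the largest ratio, were found together in 68 of the 71 cells, in 93 of the 2512 other CO epithelial cells and in 1938 of the 4608 DES epithelial cells (42.1%). After thinning to 3000 UMIs per cell these shares were 70.4%, 0.442% and 3.58%. Of the 11 other CO epithelial cells with both genes after thinning, 10 were in cluster 4 (5.41% of its 185 cells). No single cell carried these genes, since the cell with the most *Plat* held 4.94% of its UMIs and that with the most *Gstm7* held 6.0%.

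Several leading genes act in signalling. *Il1r1*, the receptor for interleukin 1, stood at 160 against 7.48 CPM (ratio 21.4, 18.5 to 24.7) and had a UMI in 63 of 71 cells. *Fzd10*, a Frizzled receptor, stood at 63.9 against 7.54 CPM, a ratio of 8.48 (6.87 to 10.4), although cluster 14 had 72.7 CPM. *Ptpn22*, a tyrosine phosphatase best known from lymphocytes, stood at 110 against 11.9 CPM and was at 93.9 CPM in CO lymphocytes. *Dlgap1*, a scaffold protein of synapses, stood at 82.0 against 2.18 CPM and was higher still in CO stromal cells, at 154 CPM. *Fst*, the activin inhibitor follistatin, stood at 54.9 against 4.10 CPM, but only 21 cells had a UMI and 1 cell held 29.9% of its UMIs.

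Among genes of cell cycle control, *Ccnd2*, a D-type cyclin, stood at 355 against 33.0 CPM, a ratio of 10.8 (9.85 to 11.8). *Cdkn2a*, whose products include an inhibitor of cyclin-dependent kinases, stood at 169 against 25.2 CPM, a ratio of 6.71 (5.92 to 7.58). Both had a UMI in most cells of the cluster, 52 for *Ccnd2* and 54 for *Cdkn2a*. *Msx1*, a homeobox factor of the uterine epithelium, was found in all 71 cells, with 2 to 42 UMIs each, at 531 against 69.1 CPM. *Marcksl1*, a membrane protein that binds actin, stood at 161 against 17.6 CPM.

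The other leading genes encode proteins of varied function. *Serpinb7*, a serine protease inhibitor, stood at 408 against 31.2 CPM and the membrane peptidase *Mme* (neprilysin) at 218 against 30.3 CPM. *Calb1*, the calcium buffer calbindin, stood at 230 against 14.3 CPM, with 105 CPM in cluster 11. *Soat1*, which esterifies cholesterol, stood at 110 against 8.23 CPM, and the urea transporter *Slc14a1* at 106 against 10.2 CPM. *Ap1s2*, a subunit of a clathrin adaptor, stood at 153 against 5.66 CPM, and *Ppp2r2b*, a regulatory subunit of protein phosphatase 2A, at 174 against 21.7 CPM. *Kctd14* stood at 122 against 13.2 CPM, with a higher level in cluster 13 (174 CPM). The transcript RP23-89C10.1 stood at 522 against 76.1 CPM. *Bpifb5* was unlike the rest, since 20 cells held all of its 297 UMIs and 1 cell held 30.6% of them, and cluster 13 had a higher level (270 CPM).

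**Figure D2:**
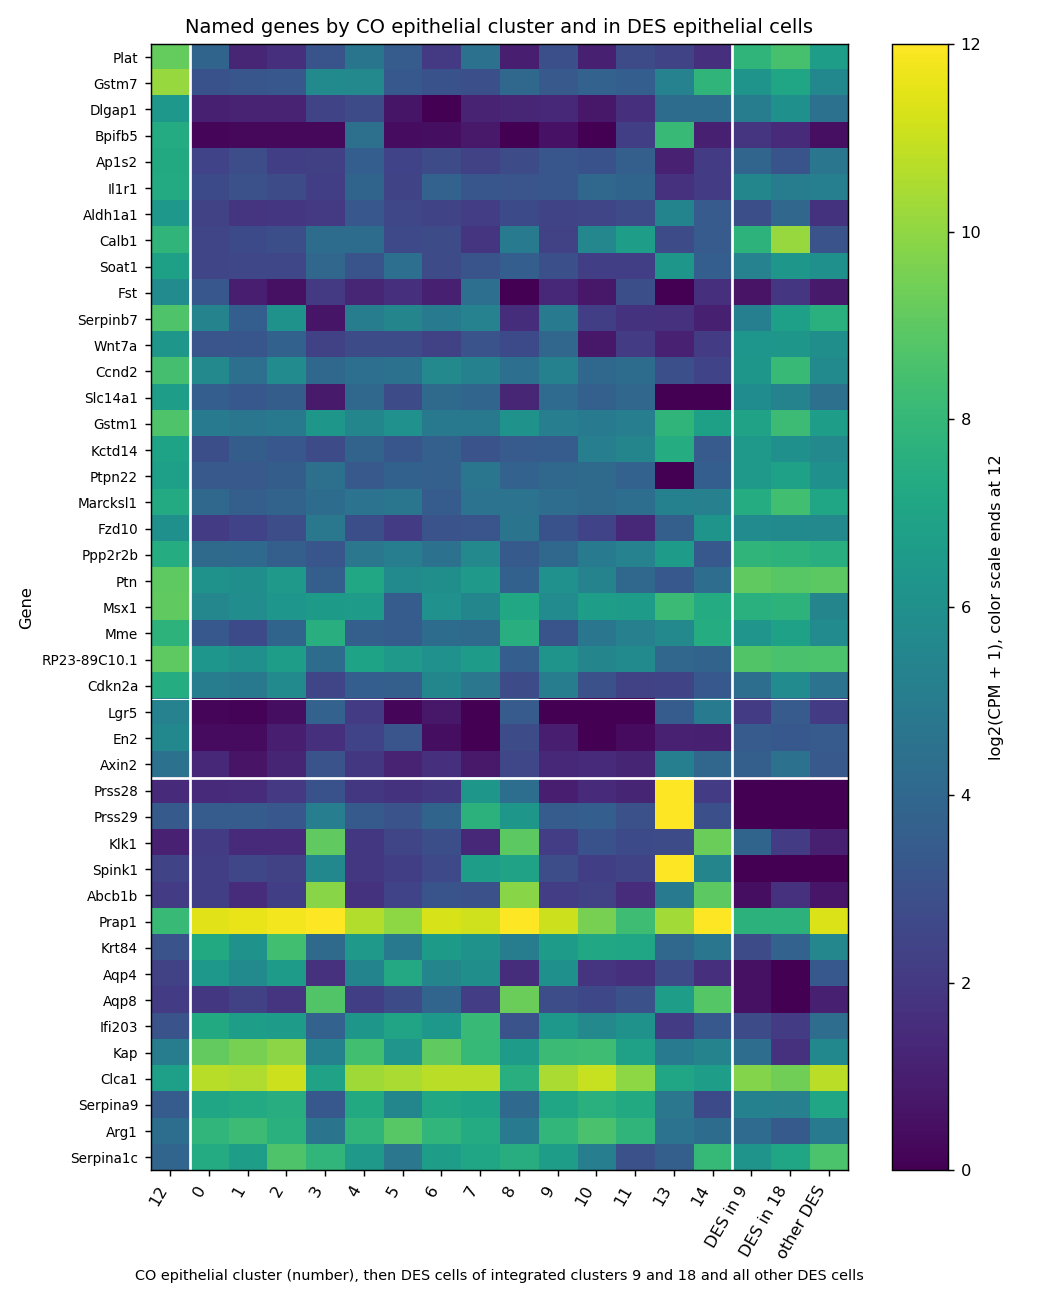
Levels, as log2(CPM + 1), of the 25 genes with the largest ratio, of Lgr5, En2 and Axin2, and of the 15 genes with the smallest ratio (rows). Columns are cluster 12, each other CO epithelial cluster, DES epithelial cells of integrated clusters 9 and 18, and the other DES epithelial cells with a DES cluster number. Cluster 12 is the first column, and it is the highest CO cluster for 22 of the 25 leading genes.

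Lists of related genes were counted over members with at least 20 CPM in both groups, since a gene that reached this level in 1 group only had to differ. Of all 5095 such genes, 2.9% were 2-fold or more higher in cluster 12 and 3.02% lower, against 5.83% and 5.61% of the 6241 genes with 20 CPM in either group. Members that reached 20 CPM in 1 group only were not counted, and some of them are given by name or by their values. Of the 7 mu-class glutathione S-transferases in the table, 3 had this level in both groups and all 3 were higher. *Gstm1* stood at 417 against 41.2 CPM (ratio 10.1), *Gstm5* at 182 against 78.2 CPM (2.33) and *Gstm2* at 83.7 against 38.5 CPM (2.18). *Gstm5* was higher in cluster 14, at 752 CPM, and *Gstm1* in CO mesothelial cells, at 600 CPM. The 4 genes lie between positions 107895821 and 108017973 of chromosome 3 (GRCm38, GENCODE M21). They are similar in sequence, and the effect of this on their counts was not tested. Of 7 other glutathione S-transferases, 1 was lower (*Mgst3*, 57.7 against 215 CPM) and 0 higher, and *Gstz1* stood at 37.3 against 16.4 CPM. Of 11 other redox enzymes, *Prdx6*, a peroxiredoxin, was higher (431 against 204 CPM) and 0 lower, while *Cat* (26.0 against 17.1 CPM) and *Gpx2* (23.8 against 15.9 CPM) reached 20 CPM in cluster 12 only and *Gpx3*, a secreted glutathione peroxidase, in the other cells only (12.4 against 120 CPM).

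Wnt pathway genes were described by role. Of 2 ligands with at least 20 CPM in both groups, *Wnt5a* was higher (86.0 against 32.2 CPM) and *Wnt4* stood at 29.4 against 49.7 CPM. *Wnt7a*, given above, reached this level in cluster 12 only and *Wnt7b* in the other cells only (15.8 against 35.2 CPM). Of 5 receptors and co-receptors, *Fzd6* (123 against 37.3 CPM) and *Ror2* (44.7 against 21.5 CPM) were higher and 0 lower. *Lgr5*, *Fzd10* and *Fzd1* (41.3 against 14.3 CPM) reached 20 CPM in cluster 12 only. None of the 15 inhibitors measured had this level in both groups, and 2 had it in cluster 12, *Znrf3* (23.8 against 5.78 CPM, ratio 4.11, 2.92 to 5.65) and *Rnf43* (33.9 against 8.55 CPM, ratio 3.97, 2.99 to 5.17). These genes encode ubiquitin ligases that remove Frizzled receptors from the cell surface and are themselves induced by Wnt signalling. Neither was particular to cluster 12 within the epithelium, since *Znrf3* stood at 27.5 CPM in cluster 14 and *Rnf43* at 33.7 CPM in cluster 13. Of 5 targets and nuclear factors with this level in both groups, *Ccnd2* and *Ccnd1* (389 against 164 CPM) were higher and 0 lower, while *Tcf7l2* stood at 53.2 against 72.7 CPM.

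Other developmental pathways were described in the same way. *Ihh*, Indian hedgehog, which the epithelium secretes toward the stroma under progesterone, had the largest ratio of the listed genes with at least 20 CPM, 73.5 (51.4 to 106), at 48.7 against 0.662 CPM. Its level lay just under the 50 CPM that the list of leading genes required. A UMI of *Ihh* was found in 34 of 71 cells, against 33 of the 2512 others, with a next highest cluster at 4.41 CPM. The progesterone receptor *Pgr* stood at 166 against 73.8 CPM (ratio 2.25, 2.0 to 2.53) and *Smo*, the hedgehog signal transducer, at 50.4 against 24.7 CPM. The estrogen receptor *Esr1* stood at 207 against 228 CPM. Of 3 Notch pathway genes with at least 20 CPM in both groups, none differed 2-fold. Of 4 BMP and TGF-β genes, *Id2* was higher (95 against 33.4 CPM) and 0 lower, while *Fst* and *Bambi* (26.0 against 8.67 CPM) reached 20 CPM in cluster 12 only. Of 5 Müllerian and posterior Hox factors, *Msx1* and *Sox17* (213 against 88.0 CPM) were higher, while *Pax8*, *Pax2* and *Emx2* had ratios from 1.08 to 1.49. In the retinoic acid pathway, *Cyp26a1*, which degrades retinoic acid, stood at 6.22 against 24.7 CPM.

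The genes lowest in cluster 12 were mostly products of gland and luminal cells. The serine proteases *Prss28* and *Prss29* stood at 1.70 and 9.62 CPM against 189 and 616 CPM, and at 15773 and 51277 CPM in cluster 13. *Spink1*, a protease inhibitor, stood at 4.53 against 222 CPM and *Klk1*, a kallikrein, at 1.13 against 57.0 CPM, from 2 UMIs. The transporter *Abcb1b* (3.39 against 93.3 CPM) and the water channel *Aqp8* (3.39 against 54.0 CPM) were genes of the gland clusters too, with 931 and 627 CPM in cluster 8, and were as low in luminal cluster 0 (3.71 and 2.90 CPM) as in cluster 12. *Prap1*, an abundant secreted protein of the uterus, stood at 282 against 7230 CPM, and had a UMI in all 71 cells. In CO lymphocytes, which do not make these gland products, *Prss29* stood at 81.0 CPM, *Prap1* at 804 CPM, *Klk1* at 28.9 CPM and *Prss28* at 12.5 CPM. The lymphocytes had a median of 4033 UMIs per cell against 20061 in cluster 12, and free RNA takes a larger share of the UMIs of a shallow cell, so the part of free RNA in the levels of cluster 12 was not measured.

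Luminal genes were lower as well. *Clca1*, a secreted protein, stood at 108 against 1463 CPM, *Kap* at 32.8 against 467 CPM, *Arg1*, an arginase, at 19.2 against 237 CPM, and *Ifi203*, an interferon-inducible gene, at 7.35 against 108 CPM. The water channel *Aqp4* (3.96 against 64.0 CPM), the keratin *Krt84* and the serpin *Serpina9* were also among the 15, as was *Serpina1c*, which both kinds of cluster expressed. Of the 15 genes, 13 were 2-fold or more lower in cluster 12 against the luminal clusters alone and 9 against the gland clusters alone. The luminal list counted here was chosen by the study on these same cells and is not independent of these data, while the gland lists hold known gland markers, some of which the study used to name gland clusters. Of the members with at least 20 CPM in both groups, 3 of 5 luminal and 3 of 5 developing gland genes were lower. In cluster 12, 0 mature gland genes had that level. *Foxa2*, a mature gland gene under that level in both groups, went the other way, at 12.4 CPM in cluster 12 against 7.27 CPM. After thinning to 3000 UMIs it was in 5.63% of cluster 12 cells and 1.77% of the other CO epithelial cells.

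Genes that respond to estrogen in the uterus were lower more often than higher against the pooled other CO epithelial cells. All 15 listed summed to 12328 CPM in cluster 12, within the 2789 to 41185 CPM of the other CO clusters. Of 12 such genes with at least 20 CPM in both groups, 5 were 2-fold or more lower and 1, *Pgr*, was higher, where 3.02% and 2.9% of all genes were. *Sprr2f*, an envelope protein strongly induced by estrogen, stood at 4277 against 14639 CPM, *C3*, complement component 3, at 535 against 1758 CPM and *Padi1* at 431 against 1050 CPM. Of 6 interferon-stimulated genes with this level in both groups, 1 was lower, *Oasl2* (24.3 against 65.8 CPM), and 0 higher. Another 5 reached 20 CPM in the other cells only, among them *Oas2* (4.53 against 29.1 CPM), *Irf7* (11.9 against 42.8 CPM) and *Ifi44* (13 against 50.6 CPM). The listed interferon-stimulated genes summed to 346 CPM, within the 159 to 1022 CPM of the other CO clusters. Of 5 chemokines, *Cxcl1*, *Cxcl17* and *Ccl28* were lower and *Cxcl14* was higher (64.5 against 24.4 CPM). The listed chemokines summed to 389 CPM, within the 350 to 1286 CPM of the other CO clusters. Of 10 integrins, laminins and basement membrane genes, *Itga6* (111 against 270 CPM) and *Itgb4* (22.6 against 57.0 CPM) were lower and 0 higher. *Lamb2* reached 20 CPM in cluster 12 only, and *Itga3*, *Lama3* and *Lamb3* in the other cells only. Of 5 genes of the insulin-like growth factor axis, *Igfbp4* was higher (53.2 against 23.6 CPM) and 0 lower, while *Igfbp5* reached 20 CPM in cluster 12 only (23.2 against 18.5 CPM) and *Igfbp3* in the other cells only (1.13 against 35.5 CPM).

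Markers of stem cells in other epithelia were mixed. Of 11 with at least 20 CPM in both groups, 1 was higher, *Sox4* (450 against 173 CPM), and 4 were lower, including *Itga6* and *Prom1* (134 against 283 CPM). *Hopx* (26.6 against 8.97 CPM), *Bmi1* (23.2 against 18.4 CPM) and *Cd44* (20.9 against 17.4 CPM) reached this level in cluster 12 only and *Lrig1* in the other cells only (15.3 against 36.2 CPM).

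Epithelial identity was checked against its markers. All 10 epithelial markers had at least 20 CPM, and *Epcam* stood at 969 CPM. *Krt8* stood at 1053 against 1560 CPM. *Krt7* (262 against 1013 CPM) and *Krt19* (595 against 1244 CPM) were 2-fold or more lower. The summed markers of smooth muscle and pericytes came to 38.5 CPM, of endothelium to 20.4 CPM and of immune cells to 70.7 CPM. Stromal markers summed to 585 CPM, within the 288 to 768 CPM of the other CO clusters, and *Dcn* stood at 360 CPM, against 734 CPM in CO lymphocytes. Mesothelial markers summed to 110 CPM, within 52.0 to 120 CPM, with *Gpm6a* at 23.2 against 10.1 CPM and *Upk3b* at 30.6 against 19.5 CPM. *Krt5* and *Trp63*, markers of basal cells, had 0 UMIs, which allows up to 1.70 CPM, and *Krt14* had 2. Ciliated cell markers summed to 28.9 CPM, with 6 of 10 at 0. The part of other cell types in the values of cluster 12 was not tested further.

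Genes of the cell cycle were split by phase. Of 3 S-phase genes with at least 20 CPM in both groups, 0 were 2-fold higher or lower. The helicase subunits *Mcm2* (41.3 against 12.6 CPM), *Mcm3* (27.2 against 10.3 CPM) and *Mcm7* (33.4 against 14.5 CPM) and the DNA glycosylase *Ung* (27.7 against 12.7 CPM) reached 20 CPM in cluster 12 only. *Mcm4* and *Mcm6* did so too, at less than 2-fold. Such members had to be higher there and were not counted. The summed S-phase genes came to 402 CPM in cluster 12, within the 121 to 992 CPM of the other CO clusters, of which cluster 14 was highest. Of 3 G2/M genes, *Ube2c* was lower (27.7 against 65.6 CPM). *Birc5* stood at 6.79 against 27.4 CPM and *Top2a* stood at 35.1 against 35.0 CPM. Summed G2/M genes came to 254 CPM in cluster 12, against 3272 CPM in cluster 14. A UMI of *Top2a* was found in 22 cells and of *Mki67*, a nuclear protein of dividing cells, in 7, and 4 of the 71 cells held at least 20 UMIs of the G2/M genes. With each cell thinned to 3000 UMIs, *Top2a* was in 5.63% of cluster 12 cells (1.56 to 13.8) and in 8.06% of CO lymphocytes, against 41.6% of cluster 4 and 64.3% of cluster 14, which had the highest levels of G2/M genes. Of the 62 *Top2a* UMIs in cluster 12, 1 cell held 27.4%.

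Shares of cells with a marker depend on depth. After thinning to 3000 UMIs per cell, *Gstm7* was found in 84.5% of cluster 12 cells (74.0 to 92.0), in 3.41% of the other CO epithelial cells and in 1.29% of CO lymphocytes, which should lack it. At full depth these shares were 98.6%, 22.6% and 1.89%, and those of *Lgr5* in cluster 12 and the other CO epithelial cells were 43.7% and 3.94%. *Ptn* was found in 69.0%, 15.5% and 5.48% of the same groups, and *Wnt7a* in 18.3%, 2.45% and 0.645%. *Aldh1a1* was found in 15.5%, 1.53% and 1.61%, *En2* in 14.1%, 0.642% and 0.323%, and *Lgr5* in 12.7% and 0.723% and in 0 of 310 lymphocytes, which allows up to 0.968%. *Axin2* was found in 11.3%, 1.16% and 0.968%. Pooled over the other CO epithelial cells, *Aldh1a1*, *Lgr5*, *En2* and *Axin2* were close to the share in lymphocytes, which had a median of 4033 UMIs at full depth. Single clusters were above it. *Axin2* was in 9 of 60 cells of cluster 13 (7.10 to 26.6%) and *Aldh1a1* in 6 of 60 (3.76 to 20.5%), while *Lgr5* was in 6 of 123 cells of cluster 8 (1.81 to 10.3%). Thinning left out 21 of the other epithelial cells, 113 lymphocytes and none of cluster 12.

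The combination of *Aldh1a1*, *Lgr5* and *Axin2* was found in 13 of 71 cells of cluster 12 at full depth, 18.3% (10.1 to 29.3), and in 8 of the 2512 others, 0.318% (0.138 to 0.627). Of these, 10 and 4 cells had no UMI of *Foxa2*, a transcription factor of the glands. The 8 other cells were not spread evenly. Cluster 4 held 4 of them, among its 187 cells (2.14%). Cluster 14 held 2, among its 28 cells (7.14%, 0.877 to 23.5), an interval that overlaps that of cluster 12. At full depth 7 of the 71 cells had a UMI of none of the 3 genes. After thinning to 3000 UMIs no cell of either group had all 3, and the combination was not detectable at that depth. In the DES library 45 of 4608 epithelial cells had all 3, and 11 of these had no UMI of *Foxa2*.

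The whole profile of cluster 12 was compared with those of the other clusters over 10484 genes with at least 10 CPM in any cluster, as a description across genes, which are not independent. The Pearson correlation of log2(CPM + 1) was highest with DES cluster 9 (0.920) and, among CO clusters, with cluster 6 (0.916) and clusters 0 (0.914) and 1 (0.913). It was lowest with cluster 14 (0.801). The differences among the first few were small, and a Spearman correlation and genes with at least 50 CPM gave DES cluster 9 and CO cluster 6 the first place within their libraries.

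In the authors' clustering of CO and DES epithelium together, the cells of cluster 12 lay with DES cells. Of 21 integrated clusters, 4 held cells of both libraries. They took in 69 of the 71 cells of cluster 12 and 15 of the 2512 other CO cells. Integrated cluster 9 held 44 cells of cluster 12, 1 other CO cell and 297 DES cells, and integrated cluster 18 held 23 cells of cluster 12, 1 other CO cell and 43 DES cells. The remaining 4 cells of cluster 12 were in integrated clusters 1, 6 and 7. The paper's text instead placed the control stem cells in integrated clusters 7 and 18. In the metadata used here, integrated cluster 7 held 1 of the 71 cells. Of the 297 DES cells in integrated cluster 9, 133 belonged to DES cluster 11 and 81 to DES cluster 13, and 1 had no DES cluster number. Of the 43 in integrated cluster 18, 11 belonged to DES cluster 9 and 32 had no DES cluster number, so most of them were outside the authors' clustering of the DES epithelium. Per the paper, DES cells with more than 1 count of both *Krt14* and *Trp63* were taken out as basal cells before that clustering. Whether the 32 cells were among those was not tested.

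**Figure D3:**
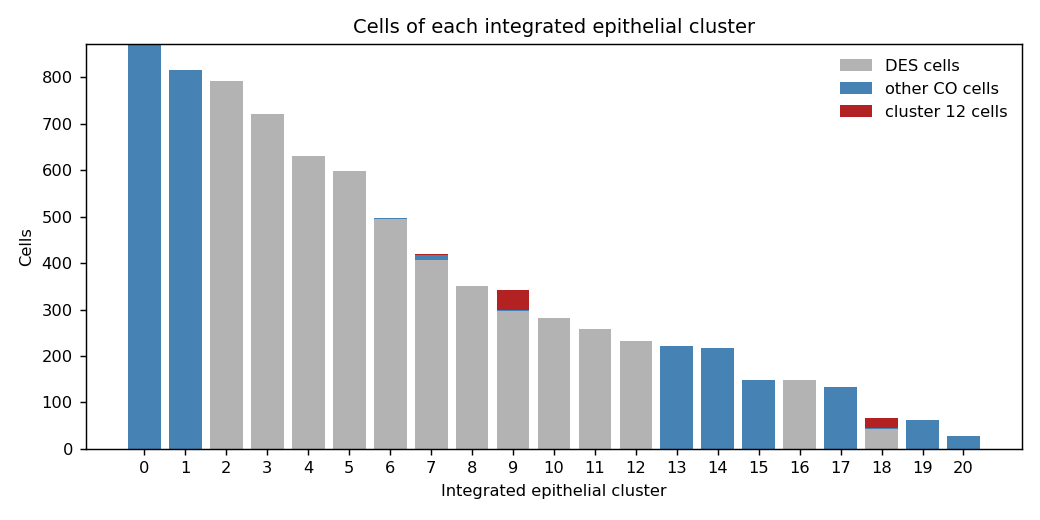
Number of cells (vertical) in each of the 21 integrated epithelial clusters (horizontal), stacked as DES cells (grey), other CO cells (blue) and cluster 12 cells (red). The cells of cluster 12 lie almost wholly in integrated clusters 9 and 18, which otherwise hold DES cells.

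The DES cells grouped with cluster 12 had some of its leading genes at a like level and others far lower. With 1 library per condition these levels are given side by side with no test. The other DES cells in this comparison were the 4301 that had a DES cluster number, while 32 of the DES cells of integrated cluster 18 had none. *Ptn* stood at 523 CPM in cluster 12, at 545 CPM in the DES cells of integrated cluster 9 and at 474 CPM in those of cluster 18. It stood at 502 CPM in the other DES cells, against 67.4 CPM in the other CO cells. *Wnt7a* stood at 81.5, 77.3, 81.8 and 61.7 CPM in the same order, and *Ppp2r2b* at 174, 234, 216 and 187 CPM. The pooled DES levels of these 3 genes were nearer to cluster 12 than to the other CO cells, but single DES clusters ran from 152 to 1822 CPM for *Ptn* and from 39.7 to 96.7 CPM for *Wnt7a*.

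*Msx1* and *Calb1* were higher in the grouped DES cells than in the other DES cells. The grouped cells were placed with cluster 12 by a clustering on these same counts, so a shared high level is no test of likeness. *Msx1* stood at 531 CPM in cluster 12, at 198 and 214 CPM in the DES cells of integrated clusters 9 and 18 and at 43.7 CPM in the other DES cells. *Calb1* stood at 230 CPM in cluster 12, 213 and 1147 CPM in the grouped DES cells and 7.49 CPM in the others. *Plat* stood at 573, 234, 367 and 101 CPM. *Gstm7*, in contrast, stood at 1121 CPM in cluster 12 and at 73.2, 130 and 47.0 CPM in the DES groups, *Aldh1a1* at 83.2 CPM and 6.42, 14.5 and 2.36 CPM, and *Lgr5* at 39.6 CPM and 3.44, 10.0 and 3.28 CPM. *Cdkn2a* stood at 169 CPM and 19.2, 55.1 and 23.1 CPM, and *Ihh* at 48.7 CPM and 3.21, 15 and 1.09 CPM. Of the 25 leading genes, 24 were lower in the pooled DES epithelial cells with a DES cluster number than in cluster 12. Their median ratio was 0.252, where 2118 of all 3230 genes were lower and the median over all 3230 was 0.880. The median ratio was 0.373 in the DES cells of integrated cluster 9 and 0.640 in those of cluster 18. The DES cells of integrated cluster 18 were also high in *Fos* (4340 CPM) and *Egr1* (986 CPM), immediate early genes described below. These stood at 70.2 and 14.3 CPM in the DES cells of integrated cluster 9 and at 163 and 32.0 CPM in the other DES cells. The part of such genes in the grouping was not tested. Genes chosen for a high level in cluster 12 tend to be lower in any other group.

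Within cluster 12, the cells placed in integrated clusters 9 and 18 differed in immediate early genes, which are induced within minutes by growth factors, stress and handling. The 10 such genes with at least 50 CPM in both groups were all 2-fold or more higher in the 23 cells of integrated cluster 18 than in the 44 cells of cluster 9, with a median ratio of 4.85, where 53 of 2611 genes (2.03%) were higher by that measure and the median was 0.977. *Fos* stood at 2922 against 648 CPM, *Jun* at 1813 against 349 CPM, *Egr1* at 1030 against 179 CPM and *Fosb* at 750 against 121 CPM. The summed immediate early genes ranged from 89.8 to 196 UMIs per 10000 in the cells of cluster 18, with a median of 143, and from 9.45 to 110 in those of cluster 9, with a median of 24.5. The medians of the other CO clusters ran from 15.6 to 121 per 10000, below the median of these 23 cells, and the highest single cells reached 274 in cluster 3 and 215 in cluster 14. The integrated clusters were formed with these genes, and whether the difference arose in the tissue or during cell isolation was not tested.

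The leading genes were compared across this split. Between the 2 groups, 1 of the 25 was 2-fold or more higher in the cells of integrated cluster 18, *Ccnd2* (614 against 273 CPM), and 1 was lower, *Bpifb5* (18.8 against 258 CPM), with a median ratio of 1.06. Of all 3269 genes with at least 50 CPM in either group, 4.04% were higher and 1.32% lower. *Gstm7* stood at 1049 against 1164 CPM, *Ptn* at 503 against 529 CPM and *Aldh1a1* at 73.1 against 87.9 CPM. *Ihh* stood at 27.2 against 61.0 CPM, a ratio of 0.445 (0.226 to 0.813). The tight junction gene *Cldn4* (591 against 47.5 CPM), the stress-induced cytokine *Gdf15* (299 against 35.9 CPM) and the interferon-induced *Ifit1* (107 against 13.5 CPM) were higher in the cells of cluster 18. The invariant chain *Cd74* (18.8 against 79.8 CPM) was lower. The summed markers ranged from 0.946 to 34.9 UMIs per 10000 in the cells of cluster 18 and from 3.72 to 41.9 in those of cluster 9, with medians of 17.4 and 17.3.

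**Figure D4:**
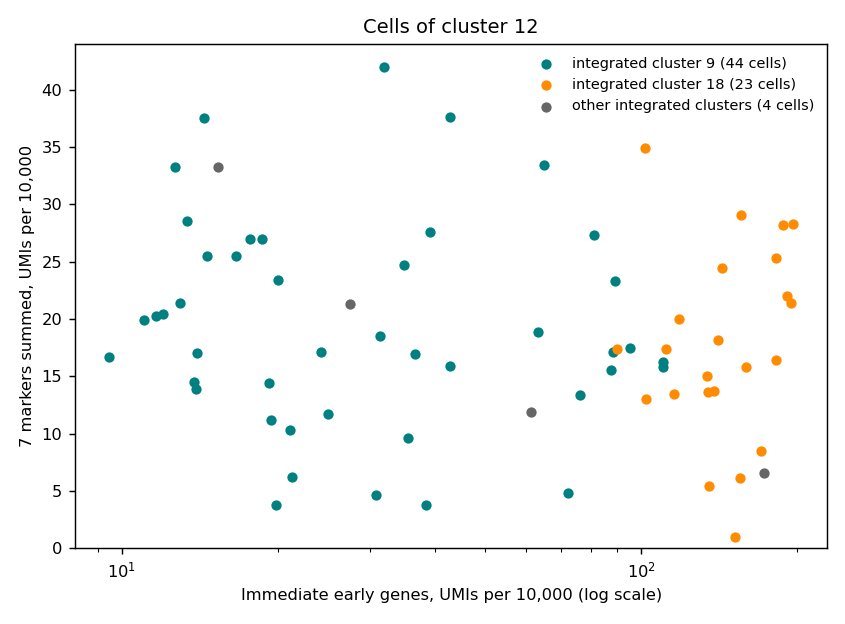
Each point is 1 of the 71 cells of cluster 12, placed by the summed UMIs of the immediate early genes per 10000 UMIs (horizontal, log scale) and by the summed UMIs of the 7 markers per 10000 UMIs (vertical). Cells of integrated cluster 18 (orange) lie at 89.8 or more immediate early UMIs, while the marker UMIs of the cells in integrated clusters 9 (teal, 3.72 to 41.9) and 18 (0.946 to 34.9) overlap. Grey points are the 4 cells of other integrated clusters.

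The whole sections were samples that the clustering did not use. They contain stroma, muscle and vessels besides epithelium, so a level in a section does not give the level in cluster 12. Fewer cells of a type cannot be told apart from less RNA per cell. Per the paper, a pathologist checked the DES tissue for uterine adenocarcinoma, blocks were cored, and the DES sections held basal cells. It also reports a large tissue fold in 1 CO section and poor separation of clusters in 1 DES section. The part of these in the differences below was not tested. Each section held 1357 to 1834 spots and 9117099 to 12506177 UMIs. Of 14098 genes tested between 2 DES and 2 CO sections by edgeR's quasi-likelihood test, 367 (2.6%) were higher and 363 (2.57%) lower in DES at a Benjamini-Hochberg adjusted p under 0.05. Of the 25 leading genes of cluster 12, 24 were tested, of which 5 rose and 1 fell. These counts, and those over all genes, rested on single sections. Leaving out either DES section lowered the number that rose, and leaving out either CO section raised it, as it did for all genes tested. The median log2 difference of the 24 genes was 0.83, against -0.01 over all genes tested. Of the 162 genes 2-fold or more higher in cluster 12, 161 were tested, of which 7 rose and 4 fell, with a median of -0.01.

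*Fzd10* stood at 5.92 and 7.25 CPM in the CO sections and at 29.4 and 28.2 CPM in the DES sections, a log2 difference of 1.92 ± 0.53 (SE, n = 2 against 2 sections, edgeR adjusted p = 0.022). *Cdkn2a* stood at 2.48 and 0.453 CPM against 29.7 and 30.0 CPM, a log2 difference of 4.09 ± 1.32 (edgeR adjusted p = 0.043). *Ccnd2* (log2 difference 1.59), *Marcksl1* (1.11) and RP23-89C10.1 (1.26) were the other genes that rose. *Msx1* fell. The CO sections had 77.7 and 87.1 CPM and the DES sections 13.8 and 7.29 CPM, a log2 difference of -3.18 ± 0.86 (edgeR adjusted p = 0.021). The groups did not overlap for any of these 6 genes, but the test had picked them, and the share of all genes without overlap was not counted.

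None of the 6 markers tested passed the threshold in edgeR, and *Lgr5* was not tested, since it was at 0 in both CO sections and at 0.658 and 0.405 CPM in the DES sections. *En2* stood at 0.0800 and 0.181 CPM in CO and at 3.40 and 13.6 CPM in DES (log2 difference 5.75, edgeR adjusted p = 0.054), and *Wnt7a* at 14.7 and 9.43 CPM against 49.9 and 32.1 CPM (log2 difference 1.54, edgeR adjusted p = 0.072). *Aldh1a1* stood at 33.4 and 20.9 CPM against 12.8 and 12.9 CPM (log2 difference -1.29, edgeR adjusted p = 0.080). *Axin2* stood at 22.1 and 17.7 CPM against 14.5 and 13.4 CPM (log2 difference -0.73, edgeR adjusted p = 0.132), and *Ptn* at 99.2 and 114 CPM against 93.8 and 84.6 CPM (log2 difference -0.47, edgeR adjusted p = 0.169). The DES sections lay above both CO sections for *En2* and *Wnt7a* and below both for *Aldh1a1*, *Axin2* and *Ptn*. The share of all genes with such an order was not counted, so no result about the markers is read from it. The calls of the markers depended on the fit. *En2* and *Wnt7a* passed the threshold with DESeq2, with a replicate block and with no filter on low counts. *Aldh1a1* passed with DESeq2. *Gstm7*, at 6.16 and 5.89 CPM in CO and 4.61 and 6.17 CPM in DES, overlapped between the groups. *Foxa2*, no leading gene of cluster 12, rose in the same test (log2 difference 2.72), with 4.48 and 3.44 CPM in CO and 22.5 and 37.8 CPM in DES, and its part in the other differences was not tested.

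**Figure D5:**
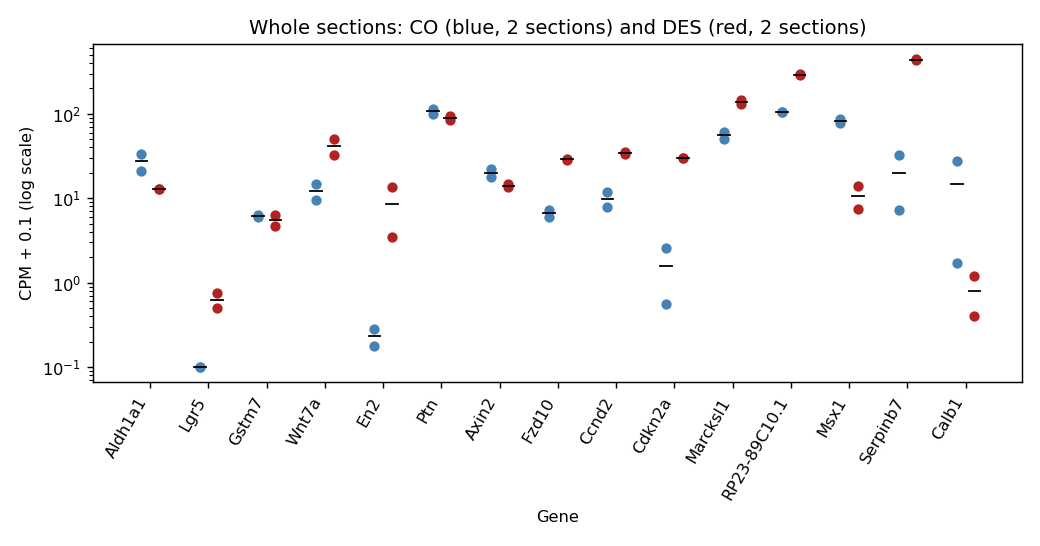
Level in each whole section, as CPM + 0.1 on a log scale (vertical), of the 7 markers, of the 6 leading genes that passed the test and of Serpinb7 and Calb1 (horizontal). Blue points are the 2 CO sections and red points the 2 DES sections, and bars are means.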

How the data were processed

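Uterine cells were measured by droplet scRNAseq in 1 CO and 1 DES library, and whole sections by spatial transcriptomics in 2 CO and 2 DES samples. The deposited counts were raw UMI counts per gene and cell or spot, made by the authors with Cell Ranger 3.0.1 and Space Ranger 1.2.2 on mm10, per the submitters' processing notes. Cluster numbers and cell labels came from the authors' deposited metadata, and per the study's methods doublets had been removed before clustering. Of 2629 clustered CO cells, 46 had no column of counts and were left out. The members and gene lists were chosen with earlier results of these data known, and the minimum level in both groups used for counts over lists was chosen after seeing the data.

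UMIs were summed per group and given as CPM, with exact 95% intervals of counting error (1 UMI in cluster 12 was 0.566 CPM). Cells were thinned to 3000 UMIs for shares. The 25 genes with the largest ratio were named among those with at least 50 CPM in cluster 12 and a UMI in at least 25% of its cells. The 15 with the smallest ratio were named among those with at least 50 CPM in the other CO epithelial cells. Markers and listed genes were named besides. Sections were tested in edgeR 4.0.16 (quasi-likelihood, Benjamini-Hochberg adjustment), which was tested on simulated data first, and SEs were derived from the p-values. The study's own comparison tables were not used. Python 3.11.15, scipy 1.17.1 and R 4.3.3 were used. P-values measure only the spread between these 4 sections.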

Additional observations from a re-analysis of the deposited data

How the results depend on the processing

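With at least 20 CPM, 364 genes were 2-fold or more higher in cluster 12 and 350 lower, and with at least 100 CPM 85 and 101. With at least 20 CPM in both groups, an alternative chosen after seeing the data, 148 were higher and 154 lower. Against the gland clusters only, 417 genes were higher and 277 lower, and of the named genes 24 of the 25 leading and 9 of the 15 lowest were still 2-fold apart, the smallest leading ratio being 1.28. Against the luminal clusters only, these were 25 and 13. For the higher genes, 250 were called with the cells of integrated cluster 18 only, also chosen after seeing the data. The share of cells with *Aldh1a1*, *Lgr5* and *Axin2* was 0% after thinning to 3000 UMIs, 2.86% at 5000 UMIs and 18.3% with no thinning. In the sections, DESeq2 1.42.0 called 800 genes higher and 948 lower in DES, and 9 and 3 of the 25 leading genes. The replicate numbers did not pair the sections (correlation of same-numbered deviations -0.0094), and with a replicate block 289 genes were higher and 222 lower, with 3 and 2 of the leading genes. Leaving out 1 section gave 50 to 1300 genes higher and 5 to 1496 lower, and 0 to 11 and 0 to 4 of the leading genes, of which 0 were higher without either DES section and 10 and 11 without a CO section. Of the markers, calls absent from the edgeR test were gained for *En2* and *Wnt7a* with DESeq2, the block and no filter on low counts, for *Aldh1a1* with DESeq2, and for *Aldh1a1*, *Wnt7a*, *En2*, *Ptn* and *Axin2* on leaving out 1 of the sections. None of the 7 markers changed direction in its ratio under the alternatives run, but the balance of 162 higher and 193 lower genes turned with at least 20 CPM, against the gland clusters, with the cells of integrated cluster 18 (250 higher and 234 lower) and without cells over 10% mitochondrial UMIs (230 and 225). The cause of these moves was not tested. Cells were from 1 library of 2 pooled mice, so counting intervals do not cover differences between mice, and genes under a few CPM are near the limit of detection.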

Other observations

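Below the 50 CPM that the named genes required, *Cnpy1*, a gene named here after its values were seen, had an even larger ratio of cluster 12 to the other CO epithelial cells than *Ihh*, at 32.2 CPM and a ratio of 138. No test was made of it.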
